A study of Mus musculus with 12 samples.

Results

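The 44 genes described here copy DNA and supply its precursors. They were chosen by name: the MCM helicase and the factors that load or start it, origin recognition and licensing factors, polymerases and primase, the sliding clamp with its loaders and the single-strand binding protein, the enzymes that finish the lagging strand, 4 enzymes of deoxynucleotide supply and 3 factors that rebuild chromatin behind the fork. All 44 were among the 24453 genes of the deposited table, and all 44 passed the filter on low values that 9650 genes passed. The cells were pro-erythroblasts (Pro-E), an early stage of terminal erythropoiesis, sorted from mouse bone marrow, and polyadenylated RNA was sequenced in 12 libraries. By the methods of the study, each data point of its sorting experiments, RNA sequencing among them, was a pool of 2 to 3 mice. There were 4 groups of 3 libraries. The labels give 5 month old mice of strain C57BL6, while the methods give an age of 3 to 4 months and a mixed background. WT mice and β-thalassemic mice (Hbb th1/th1, a homozygous deletion in the adult β-globin locus) were injected with PBS. The other 2 groups were WT and β-thalassemic mice injected with human apo-transferrin (apoTf), the iron-free form of the protein that carries iron to erythroblasts. The apoTf dose was 10 mg per injection, or 400 mg/kg per day, for 20 days, and cells were collected 3 days after the last injection. For every library the labels also describe a bleed of 0.4 mL over 2 days. It is not known if the mice sampled for RNA were bled. The title and the genotype tag of each library name opposite genotypes, and the titles were used for grouping. Hbb-bs, a β-globin gene of the locus, was listed at 95.8 to 201 FPKM in the 6 libraries titled th1/th1 and at 714 to 3229 FPKM in the 6 titled WT, on the side of the titles.

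A cell must load the MCM helicase on origins once per cycle, start it when S phase begins, and then feed the forks with deoxynucleotides. ORC marks the origin, Cdc6 and Cdt1 bring the MCM ring to it, geminin (Gmnn) keeps Cdt1 from loading it again, and Cdc45 with the GINS complex turns the ring into a moving helicase. Ribonucleotide reductase, made of a large subunit (Rrm1) and a small one (Rrm2), makes the deoxynucleotides in the rate-limiting step, and its small subunit needs iron to work. Pro-E divide several times as they mature, and in other cells most of these genes are switched on by E2F factors as S phase approaches.

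The promoters are shown first because the members were chosen as genes that work together in S phase, and E2F sites are the feature such genes are known to share. RefSeq promoter windows (GRCm38.p6, 250 bases before to 50 bases after a start) were given for 36 of the 44 members. One of the E2F letters TTTCCCGC, TTTCGCGC, TTTGCCGC or TTTGGCGC, on either strand, was in the windows of 14 of the 36 members (38.9%), against 5.2% of the 7214 tested genes with a window. The 14 were Mcm3, Mcm5, Mcm6, Mcm7, Orc1, Cdc6, Cdt1, Gins3, Rfc3, Lig1, Pold1, Pole2, Pola1 and Uhrf1. The CCAAT letters of NF-Y were in the windows of 24 members (66.7%), against 44% of tested genes. The letters of a GATA factor (TGATAA or AGATAA) were in 11.1% and 11.8%, and those of the cell cycle element called CHR (TTTGAA) in 13.9% and 14.2%. A match describes letters in this window and is not evidence of a bound site. Mcm6 is shown as the member with the most matches, Rfc3 for its pair at the start, and Cdt1 and Pold1 because the results turn on them; E2F letters are in capitals, 5′ to 3′.
Mcm6, chr1:128359656-128359955, minus strand: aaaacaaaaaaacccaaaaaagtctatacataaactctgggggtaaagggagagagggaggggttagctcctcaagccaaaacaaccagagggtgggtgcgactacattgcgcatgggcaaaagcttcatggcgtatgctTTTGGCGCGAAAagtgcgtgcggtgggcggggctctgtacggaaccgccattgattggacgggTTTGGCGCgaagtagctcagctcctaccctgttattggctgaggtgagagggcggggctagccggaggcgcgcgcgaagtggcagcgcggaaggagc
Rfc3, chr5:151651159-151651458, minus strand: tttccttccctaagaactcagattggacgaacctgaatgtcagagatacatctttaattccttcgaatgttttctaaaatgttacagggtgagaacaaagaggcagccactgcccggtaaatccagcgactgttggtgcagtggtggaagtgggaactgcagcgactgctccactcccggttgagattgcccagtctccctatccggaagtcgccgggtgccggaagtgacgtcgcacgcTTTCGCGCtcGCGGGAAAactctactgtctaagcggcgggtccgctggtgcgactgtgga
Cdt1, chr8:122567765-122568064, plus strand: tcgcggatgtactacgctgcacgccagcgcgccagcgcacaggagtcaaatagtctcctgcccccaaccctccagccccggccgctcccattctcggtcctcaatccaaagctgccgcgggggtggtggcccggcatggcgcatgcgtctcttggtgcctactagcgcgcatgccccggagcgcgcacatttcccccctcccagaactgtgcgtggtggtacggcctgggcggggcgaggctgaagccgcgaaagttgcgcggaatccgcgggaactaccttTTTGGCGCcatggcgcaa
Pold1, chr7:44548766-44549065, minus strand: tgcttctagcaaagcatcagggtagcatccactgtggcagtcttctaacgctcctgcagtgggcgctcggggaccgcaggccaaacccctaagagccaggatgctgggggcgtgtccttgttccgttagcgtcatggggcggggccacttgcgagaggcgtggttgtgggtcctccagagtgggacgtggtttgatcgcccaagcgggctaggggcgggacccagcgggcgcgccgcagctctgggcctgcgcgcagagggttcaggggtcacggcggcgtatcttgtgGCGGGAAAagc
Neither subunit of ribonucleotide reductase had these exact E2F letters in its window, and a missing match is not evidence that a site is missing. The windows of Rrm1 and Rrm2, whose values in PBS-injected β-thalassemic Pro-E lay below and above those of WT replicates 2 and 3, follow with CCAAT in capitals: Rrm1 had 2 matches and Rrm2 had 1.
Rrm1, chr7:102441445-102441744, plus strand: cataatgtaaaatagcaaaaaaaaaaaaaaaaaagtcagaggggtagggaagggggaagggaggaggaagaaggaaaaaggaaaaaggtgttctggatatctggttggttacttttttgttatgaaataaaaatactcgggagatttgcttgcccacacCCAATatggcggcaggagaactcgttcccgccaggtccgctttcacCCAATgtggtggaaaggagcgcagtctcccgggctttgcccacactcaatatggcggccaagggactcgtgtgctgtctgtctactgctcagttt
Rrm2, chr12:24708004-24708303, plus strand: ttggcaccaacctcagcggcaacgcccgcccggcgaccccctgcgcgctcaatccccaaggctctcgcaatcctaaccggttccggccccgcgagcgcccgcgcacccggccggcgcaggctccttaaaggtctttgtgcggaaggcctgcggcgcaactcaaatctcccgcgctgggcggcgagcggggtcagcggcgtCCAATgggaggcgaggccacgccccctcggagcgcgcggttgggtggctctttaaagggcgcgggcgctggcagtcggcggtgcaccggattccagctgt

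All 44 members were at 5.32 FPKM or more in every library. FPKM counts fragments relative to transcript length and library size, so levels can be set side by side between genes. By the median over the 11 libraries other than replicate 1 of the WT group, the most abundant members were Mcm6 at 225, Rrm2 at 202 and Rrm1 at 188 FPKM, and the least abundant was the GINS subunit Gins3 at 12 FPKM. Within those 11 libraries the coefficient of variation of a member had a median of 6.45%. It was lowest for Mcm10 (2.91%), Mcm4 (3.18%) and Rpa1 (3.37%) and highest for Pold1 (19.0%), Pold2 (14.6%), Cdt1 (14.2%) and Rrm1 (13%).

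Replicate 1 of the WT group stood apart from the other libraries, and the results that rest on it are given with and without it. Its rank correlation with the other libraries over tested genes was 0.848 to 0.905, against 0.977 to 0.995 among the other 11, and the ribosomal RNA gene Rn45s made up 14.7% of its summed FPKM against 0.775% to 2.91%. It held the lowest value of the 12 libraries for 26 members and the highest for 9. The deviation of a member in this library from the median of the others followed the GC content of its longest coding transcript, with a Pearson r of 0.90 and a Spearman rho of 0.90 across the 44 genes, which share the library and are not independent. The 11 members of lowest GC (40.4% to 46.0%) had a median deviation of -1.30 on the log2 scale and were all below 0, while the 11 of highest GC (53.6% to 60.7%) had a median of 0.39, with 9 of 11 above 0. Rpa3, the small subunit of the single-strand binding protein and the member of lowest GC (40.4%), was at 6 FPKM there against 27.5 to 45.6 FPKM elsewhere. Pold1, the catalytic subunit of polymerase delta and the member of highest GC (60.7%), was at 65.6 FPKM against 22.6 to 42.2 FPKM.

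**Figure D1:**
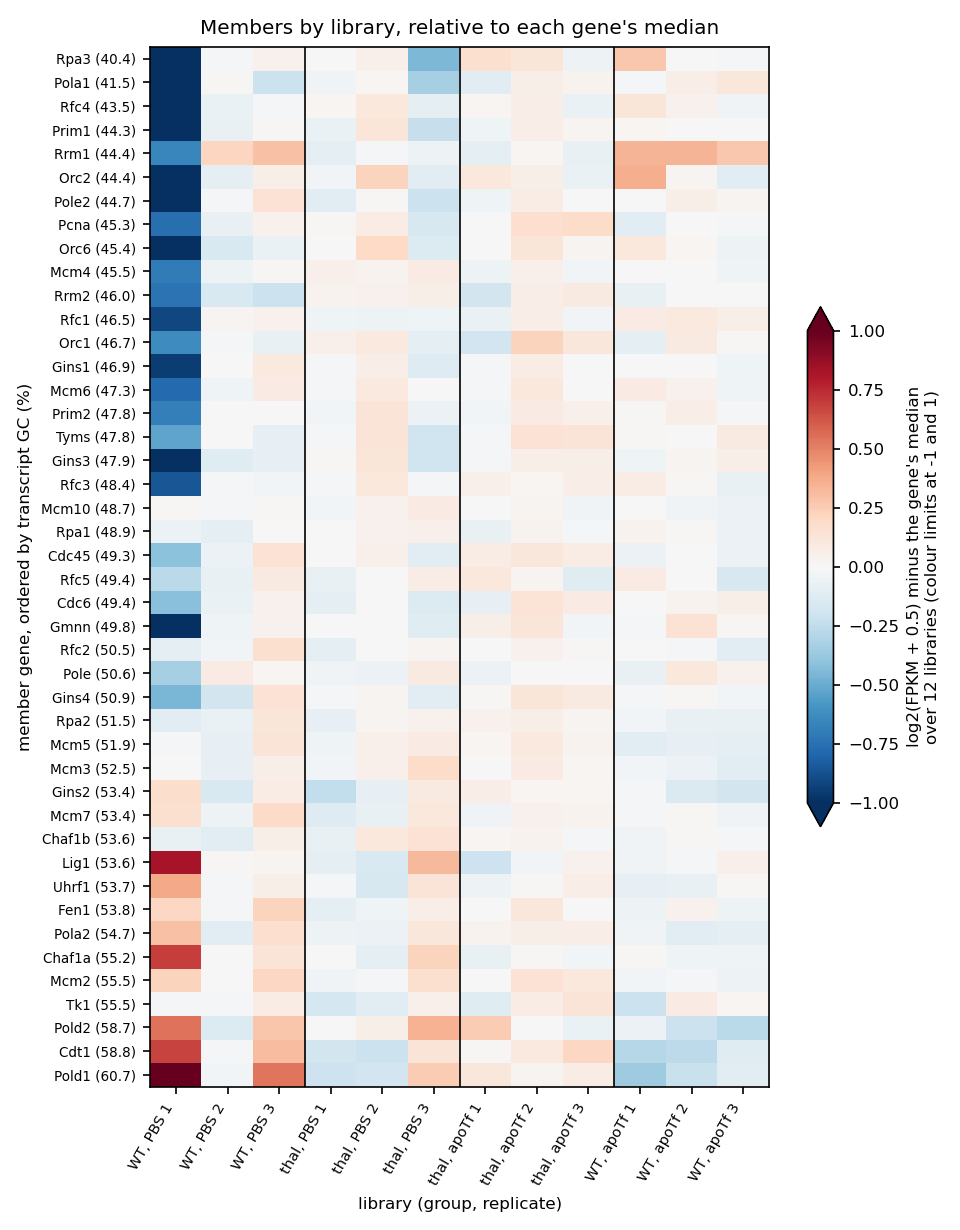
Each of the 44 members (rows, from lowest to highest transcript GC) in each of the 12 libraries (columns, 4 groups parted by lines), as log2(FPKM + 0.5) minus the gene's median over the 12 libraries. The WT PBS 1 column is blue for members of low GC and red for those of high GC, and Rrm1 is higher in each of the other 5 WT libraries than in the 6 β-thalassemic ones.

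The same relation ran at a smaller scale in other libraries. Across the 44 members r with GC was 0.85 in replicate 3 of the β-thalassemic group and 0.68 in replicate 3 of the WT group, and 0.42 and 0.32 in replicates 3 and 1 of the apoTf-treated β-thalassemic group. It was -0.63, -0.58 and -0.42 in the 3 apoTf-treated WT libraries and -0.36 and -0.57 in replicates 1 and 2 of the β-thalassemic group, and within 0.02 of 0 in the remaining libraries. Differences between groups for members at the ends of the GC range, Cdt1 (58.8%), Pold2 (58.7%) and Pold1 (60.7%) among them, lay along the library GC trend. Some of these differences are also given below after that trend was taken off each library, a step chosen after the values were seen. The others are given without that step.

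**Figure D2:**
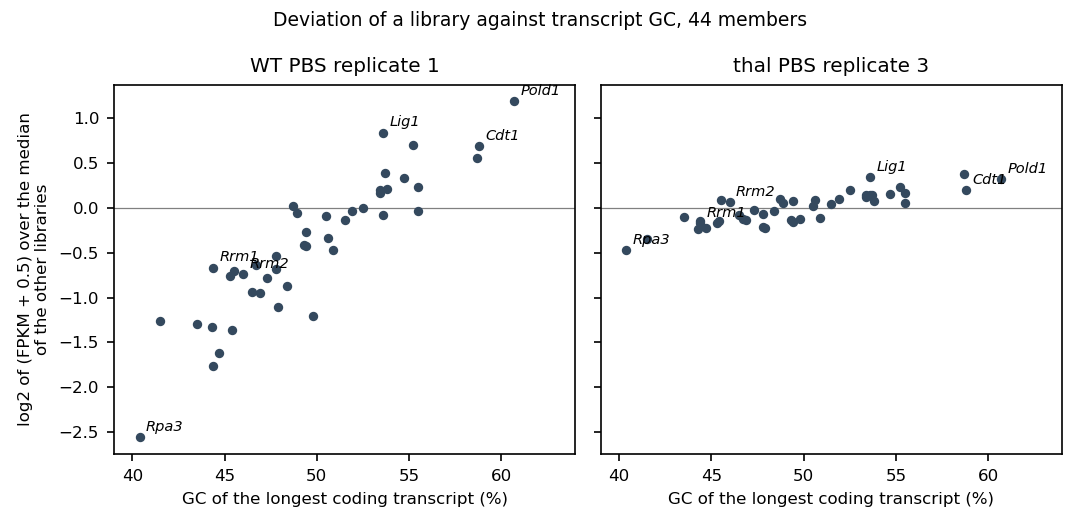
The log2 ratio of 1 library to the median of the others (vertical axis) against the GC content of the longest coding transcript (horizontal axis, percent), for 44 members. In WT PBS replicate 1 the ratios run from -2.56 for Rpa3 to 1.19 for Pold1, and in thal PBS replicate 3 they follow GC over a narrower span.

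No member passed an adjusted p of 0.05 (limma, Benjamini-Hochberg over all genes tested) in any of the 5 comparisons, with or without that library; other fits, in which Rrm1, Cdt1, Pold1 or Pcna passed, are given with those genes. For β-thalassemic against WT Pro-E 25 of 9650 genes (0.259%) passed, and 31 of 9607 (0.323%) without it. For apoTf-treated against PBS-injected β-thalassemic Pro-E 3 genes (0.0311%) passed, and 6 (0.0625%) without it. Between the genotypes under apoTf 4 (0.0415%) and 7 (0.0729%) passed. In WT Pro-E, apoTf against PBS gave 0 genes in either fit (0% and 0%), with 984 and 442 genes at an unadjusted p under 0.05. The difference between the apoTf effects of the genotypes also gave 0 (0% and 0%), with 473 and 471. A count of 0 of 44 members is thus near the background of these comparisons. Members at an unadjusted p under 0.05 numbered 3, 0, 3, 0 and 2 of 44 in these comparisons, in the order β-thalassemic against WT, apoTf in β-thalassemic, apoTf in WT, genotype under apoTf and genotype difference in the apoTf effect. Over all tested genes the shares were 7.66%, 1.43%, 10.2%, 1.41% and 4.9% in that order. Without replicate 1 of the WT group the members numbered 1, 0, 2, 2 and 2. The shares over all tested genes were then 7.77%, 3.83%, 4.6%, 3.6% and 4.9%.

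Without that library the intervals were narrow. The SE of a member's log2 difference had a median of 0.11 for β-thalassemic against WT Pro-E and 0.10 for apoTf in β-thalassemic Pro-E. The 95% interval lay inside -0.5 to 0.5 for 41 and 43 of the 44 members. The members outside it were Cdt1, Pold1 and Rrm1 in the first case and Rpa3 in the second. The median difference of the 44 was -0.02 for β-thalassemic against WT Pro-E, against -0.06 over all tested genes, and 0.04 for apoTf in β-thalassemic Pro-E, against 0.03. With all 12 libraries the first of these medians was 0.09, against 0.08 over all tested genes. In bulk RNA, fewer cells in S phase and less RNA per cell cannot be told apart.

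**Figure D3:**
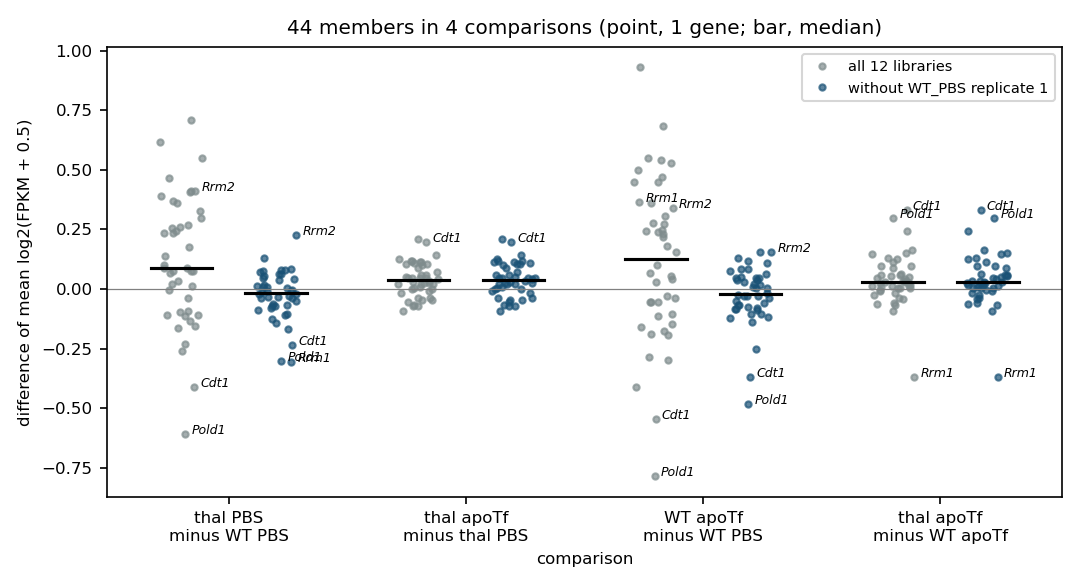
The difference of mean log2(FPKM + 0.5) of each of 44 members (points) in 4 comparisons (horizontal axis), with all 12 libraries (grey) and without WT PBS replicate 1 (blue); bars are medians. Without that library the points draw together around 0, and Rrm1 then lies at -0.31 and -0.37 in the comparisons of genotype.

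Rrm1 and Rrm2, the subunits of ribonucleotide reductase, differed from each other in how they followed genotype. Rrm1 was at 118, 216 and 228 FPKM in WT, 175, 184 and 179.8 in β-thalassemic, 174, 188 and 177 in apoTf-treated β-thalassemic and 236, 236 and 224 in apoTf-treated WT libraries. Leaving aside replicate 1 of the WT group, the 5 WT libraries (216 to 236 FPKM) lay above all 6 β-thalassemic libraries (174 to 188 FPKM), under PBS as under apoTf. Without that library the log2 difference of Rrm1 for β-thalassemic minus WT Pro-E was -0.31 ± 0.10 (SE) (limma adjusted p = 0.385, unadjusted 0.0107), and under apoTf it was -0.37 ± 0.09 (SE) (adjusted p = 0.475, unadjusted 0.0015). With all 12 libraries it was -0.0042 ± 0.21 (SE) under PBS, since replicate 1 of the WT group held 118 FPKM. For apoTf against PBS in β-thalassemic Pro-E Rrm1 had a difference of -0.00082 on the log2 scale. Its 95% interval was -0.20 to 0.20 in the fit without replicate 1 of the WT group.

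Further fits of Rrm1 were added after these values were seen. The difference averaged over PBS and apoTf was -0.34 ± 0.07 (SE) without replicate 1 of the WT group (limma adjusted p = 0.0655), in a comparison where 35 of 9607 genes (0.364%) and 0 members passed. With all 12 libraries it was -0.19 ± 0.15 (SE) (adjusted p = 0.904), with 15 genes passing (0.155%). With the GC trend of each library removed as well, it was -0.32 ± 0.06 (SE) with all 12 libraries (adjusted p = 0.0424) and -0.30 ± 0.06 (SE) without that library (adjusted p = 0.0306). Rrm1 was then the 1 member of 44 that passed, in fits where 0.656% and 0.923% of 8693 and 8667 genes passed. In PBS-injected Pro-E alone, the GC-adjusted difference of Rrm1 was -0.30 ± 0.09 (SE) (adjusted p = 0.181) with 12 libraries and -0.26 ± 0.08 (SE) (adjusted p = 0.227) with 11, and 0 members passed where 0.955% and 1.17% of genes did.

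Rrm2 was at 121, 181 and 174 FPKM in WT, 206, 207 and 209.6 in β-thalassemic, 177, 210.3 and 214 in apoTf-treated β-thalassemic and 191, 201 and 202 in apoTf-treated WT libraries. All 3 β-thalassemic libraries under PBS exceeded all 3 WT libraries, whereas under apoTf the genotypes overlapped. The log2 difference, β-thalassemic minus WT, was 0.41 ± 0.16 (SE) with all libraries (limma adjusted p = 0.528) and 0.23 ± 0.11 (SE) without replicate 1 of the WT group (adjusted p = 0.686). Within a library, the ratio of Rrm1 to Rrm2 FPKM was 0.981, 1.19 and 1.31 in WT, 0.851, 0.887 and 0.858 in β-thalassemic, 0.983, 0.895 and 0.827 in apoTf-treated β-thalassemic and 1.24, 1.18 and 1.11 in apoTf-treated WT libraries. The 6 β-thalassemic libraries spanned 0.827 to 0.983 and the 5 other WT libraries 1.11 to 1.31, while replicate 1 of the WT group, at 0.981, lay with the β-thalassemic ones.

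Rrm1 lies at chr7:102441695-102469771 (GRCm38, plus strand), 1.36 Mb from Hbb-bs at chr7:103826534-103828096, on the chromosome of the deletion that defines the genotype. Within 5 Mb of Hbb-bs 57 genes were tested, and 11 of the 35 genes called over both treatments without replicate 1 of the WT group were among them, as were 5 of the 15 called with all libraries. One gene in both counts was Pold3 (chr7:100082111-100121565), the accessory subunit of polymerase delta and not one of the 44. Pold3 was at 23.8, 33 and 33.1 FPKM in WT, 51.7, 55 and 51.4 in β-thalassemic, 52, 54.8 and 52.4 in apoTf-treated β-thalassemic and 39.5, 33.5 and 38.9 in apoTf-treated WT libraries. All 6 β-thalassemic libraries lay above all 6 WT libraries. The log2 difference of Pold3 under PBS was 0.82 ± 0.15 (SE) with 12 libraries (limma adjusted p = 0.052) and 0.66 ± 0.10 (SE) with 11 (adjusted p = 0.0133), and 0.68 ± 0.10 (SE) and 0.72 ± 0.10 (SE) with the GC trend removed (adjusted p = 0.0056 and 0.0074). No other member lies within 5 Mb of Hbb-bs, and the other members on this chromosome, Pold1 and Lig1, are 59.3 and 90.5 Mb away. Whether the position of Rrm1 has a part in its difference was not tested.

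The remaining enzymes of deoxynucleotide supply showed smaller differences. Tyms, the thymidylate synthase, was at 16.6, 24 and 22.7 FPKM in WT, 23.9, 26.4 and 20.9 in β-thalassemic, 23.9, 26.7 and 26.4 in apoTf-treated β-thalassemic and 24.3, 24.2 and 25.7 in apoTf-treated WT libraries. Tk1, the thymidine kinase of the salvage route, was at 68.6, 68.6 and 73.2 FPKM in WT, 61.3, 64.4 and 71.9 in β-thalassemic, 63.7, 72.9 and 75.8 in apoTf-treated β-thalassemic and 59.9, 73.5 and 70.2 in apoTf-treated WT libraries. Both genes overlapped between groups once replicate 1 of the WT group was set aside, apart from Tyms in apoTf-treated against PBS-injected WT Pro-E (24.2 to 25.7 against 22.7 and 24.0 FPKM). A pseudogene of Tyms is annotated, and reads shared with it would not have been counted.

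**Figure D4:**
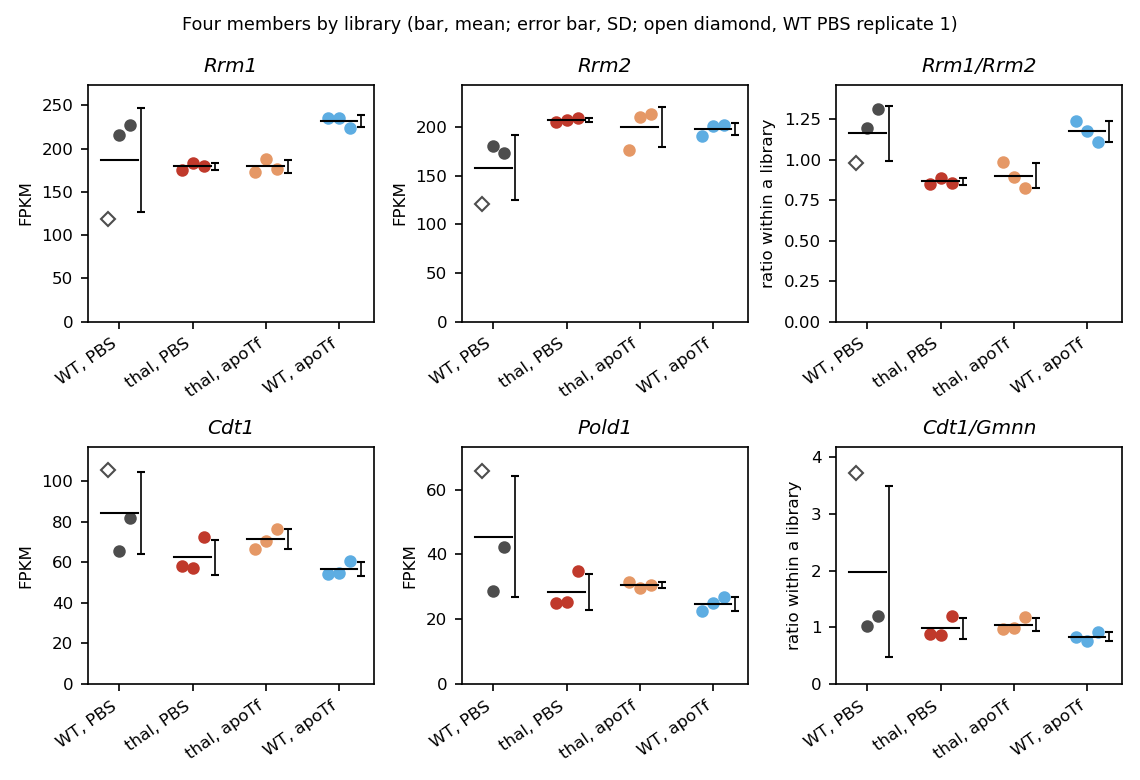
Rrm1, Rrm2, Cdt1 and Pold1 in FPKM and the ratios Rrm1/Rrm2 and Cdt1/Gmnn within a library (vertical axes, from 0) by group (horizontal axes). Points are libraries, the open diamond is WT PBS replicate 1, bars are group means and error bars SD of 3 libraries; Rrm1 in the 6 β-thalassemic libraries lies under the 5 other WT points.

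The ring subunits of the helicase had coefficients of variation from 3.18% (Mcm4) to 6.68% (Mcm2) over the 11 libraries. Mcm2 was at 156, 134 and 154 FPKM in WT, 129.9, 131 and 149 in β-thalassemic, 133, 148 and 144 in apoTf-treated β-thalassemic and 131, 132 and 128 in apoTf-treated WT libraries. Mcm5 was at 156, 149 and 172 FPKM in WT, 153, 164 and 168 in β-thalassemic, 159.8, 169 and 162 in apoTf-treated β-thalassemic and 147, 149 and 148 in apoTf-treated WT libraries. In both genes the 3 apoTf-treated β-thalassemic libraries lay above the 3 apoTf-treated WT libraries. The log2 differences were 0.11 ± 0.10 (SE) and 0.15 ± 0.09 (SE) in the fit without replicate 1 of the WT group (limma adjusted p = 1 and 1). Mcm10, which helps to start the helicase, was at 38.1, 37.2 and 38.2 FPKM in WT, 37.2, 39.1 and 40.1 in β-thalassemic, 37.7, 38.6 and 36.9 in apoTf-treated β-thalassemic and 38, 36.9 and 36.4 in apoTf-treated WT libraries, and was the steadiest member. Mcm3, Mcm4, Mcm6 and Mcm7 had log2 differences between -0.11 and 0.10 in the 4 pairwise comparisons without replicate 1 of the WT group.

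The helicase activators were at lower levels than the ring. Cdc45 was at 29.9, 38.4 and 44 FPKM in WT, 39.8, 41.4 and 37.1 in β-thalassemic, 42, 43.1 and 42.1 in apoTf-treated β-thalassemic and 38.3, 39.9 and 38.3 in apoTf-treated WT libraries. Its 3 apoTf-treated β-thalassemic values (42.0 to 43.1 FPKM) exceeded the 3 β-thalassemic ones (37.1 to 41.4 FPKM), the only member without overlap in that comparison, where 9.65% of tested genes had none. Gins2 was at 34.8, 27.5 and 32.3 FPKM in WT, 25.8, 29 and 32.7 in β-thalassemic, 32.2, 31.2 and 31.1 in apoTf-treated β-thalassemic and 30.3, 27.8 and 27 in apoTf-treated WT libraries. Of the Gins2 exon bases 67.3% are also exon of Gse1 on the other strand, so that the unstranded counts of the pair cannot be told apart. Gins1, Gins3 and Gins4 had log2 differences of -0.07 to 0.12 without replicate 1 of the WT group. In that library Gins3 was at 5.32 FPKM against 10.3 to 13 FPKM elsewhere.

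Cdt1, the licensing factor, had the smallest p of the members in 3 of the 5 comparisons with 12 libraries and in 2 without replicate 1 of the WT group. It was at 106, 65.5 and 81.8 FPKM in WT, 58, 57 and 72.4 in β-thalassemic, 66.7, 70.7 and 76.5 in apoTf-treated β-thalassemic and 54.2, 54.9 and 60.7 in apoTf-treated WT libraries. ApoTf-treated WT libraries were the lowest of the groups, and lay below all apoTf-treated β-thalassemic and all WT ones. The log2 difference of apoTf-treated from PBS-injected WT Pro-E was -0.55 ± 0.18 (SE) with 12 libraries and -0.37 ± 0.13 (SE) with 11 (limma adjusted p = 0.41 and 1). In β-thalassemic Pro-E the corresponding difference was 0.20, and the difference of these apoTf effects was 0.74 ± 0.25 (SE) (adjusted p = 0.764, unadjusted 0.0117) and 0.57 ± 0.18 (SE) without replicate 1 of the WT group (adjusted p = 0.787). With the GC trend removed it was 0.32 ± 0.13 (SE) with 12 libraries and 0.28 ± 0.13 (SE) with 11 (adjusted p = 0.911 and 0.959).

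Geminin, the inhibitor of Cdt1, did not share that pattern. Gmnn was at 28.5, 64.1 and 68 FPKM in WT, 65.8, 66.4 and 60.8 in β-thalassemic, 69, 71.7 and 64.9 in apoTf-treated β-thalassemic and 65.5, 73.1 and 66.7 in apoTf-treated WT libraries. The ratio of Cdt1 to Gmnn FPKM within a library was 3.71 in replicate 1 of the WT group and 0.752 to 1.20 in the other 11. Orc1, the largest subunit of the origin recognition complex, was at 16.6, 25.8 and 24.7 FPKM in WT, 27, 27.9 and 24.3 in β-thalassemic, 22.6, 30.3 and 28.2 in apoTf-treated β-thalassemic and 24.4, 27.6 and 26.2 in apoTf-treated WT libraries, and its groups overlapped. Cdc6, the partner of Cdt1 in loading, was at 42, 53.6 and 57.8 FPKM in WT, 52.5, 56.1 and 51 in β-thalassemic, 53.2, 61.8 and 59.6 in apoTf-treated β-thalassemic and 56.3, 57.7 and 58.5 in apoTf-treated WT libraries. With all libraries in the fit, Cdc6 was among the 3 members of smallest p for apoTf in β-thalassemic Pro-E, at a log2 difference of 0.13 ± 0.14 (SE) (limma adjusted p = 1). Orc2 and Orc6 had differences of -0.06 to 0.13 without replicate 1 of the WT group, where they were at 16 and 20.9 FPKM against 50.3 to 70.0 and 48.9 to 62.6 FPKM.

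Among the polymerases, the delta subunits Pold1 and Pold2 varied most. Pold1 was at 65.6, 28.5 and 42.2 FPKM in WT, 25, 25.3 and 34.7 in β-thalassemic, 31.3, 29.5 and 30.5 in apoTf-treated β-thalassemic and 22.6, 24.8 and 26.9 in apoTf-treated WT libraries. As for Cdt1, the apoTf-treated WT libraries (22.6 to 26.9 FPKM) lay below the WT libraries (28.5 to 65.6 FPKM) and below the apoTf-treated β-thalassemic ones (29.5 to 31.3 FPKM). The log2 difference of Pold1 for apoTf in WT Pro-E was -0.79 ± 0.25 (SE) with 12 libraries (limma adjusted p = 0.41) and -0.48 ± 0.17 (SE) with 11 (adjusted p = 1). With the GC trend removed these were -0.29 ± 0.11 (SE) and -0.17 ± 0.09 (SE) (adjusted p = 0.648 and 1). For β-thalassemic against WT Pro-E Pold1 differed by -0.61 ± 0.25 (SE) and -0.30 ± 0.17 (SE) with 12 and 11 libraries (adjusted p = 0.528 and 0.766).

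Pold1 and Cdt1 are also where another WT library decided the call. Without replicate 2 of the WT group, which leaves replicates 1 and 3, both passed for apoTf in WT Pro-E, at log2 differences of -1.08 and -0.71 (limma adjusted p = 0.0404 and 0.0439), and 446 of 9630 genes passed. Leaving out replicate 1 or 3 of the WT group gave 0 members. Pold2 was at 36.5, 22.5 and 30.3 FPKM in WT, 24.9, 25.8 and 31.7 in β-thalassemic, 29.8, 24.7 and 23.7 in apoTf-treated β-thalassemic and 23.9, 21.4 and 20.5 in apoTf-treated WT libraries. Its difference for apoTf in WT Pro-E was -0.41 ± 0.18 (SE) with 12 libraries and -0.25 ± 0.15 (SE) with 11 (adjusted p = 0.41 and 1), and -0.02 and -0.0021 with the GC trend removed.

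Pola1, the catalytic subunit of the priming polymerase, was at 19.5, 47.5 and 40.4 FPKM in WT, 45.8, 47.8 and 37.4 in β-thalassemic, 43.5, 49.1 and 48.2 in apoTf-treated β-thalassemic and 46.7, 49.2 and 50.9 in apoTf-treated WT libraries. In the 11 libraries other than replicate 1 of the WT group it kept to 37.4 to 50.9 FPKM, with its lowest value in replicate 3 of the β-thalassemic group, whose members followed GC. Pole, the leading strand polymerase, was at 23.7, 31.8 and 30.4 FPKM in WT, 29.2, 28.8 and 32 in β-thalassemic, 28.8, 29.9 and 30.2 in apoTf-treated β-thalassemic and 28.4, 32.3 and 30.9 in apoTf-treated WT libraries, and its groups overlapped in the 4 pairwise comparisons. Pola2, Pole2, Prim1 and Prim2 had log2 differences of -0.17 to 0.13 in the 4 pairwise comparisons without replicate 1 of the WT group, and the primase subunits Prim1 and Prim2 stayed within 0.07 of 0.

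Pcna, the sliding clamp, was at 81, 130.1 and 141 FPKM in WT, 138, 145 and 122 in β-thalassemic, 138, 154 and 156 in apoTf-treated β-thalassemic and 127, 136 and 136 in apoTf-treated WT libraries. The apoTf-treated β-thalassemic values (138 to 156 FPKM) lay above the apoTf-treated WT ones (127 to 136 FPKM). The log2 difference was 0.16 ± 0.10 (SE) in the fit without replicate 1 of the WT group (limma adjusted p = 1). Rfc4, a subunit of the clamp loader, was at 27.7, 64.8 and 67.1 FPKM in WT, 68.9, 72.9 and 63.9 in β-thalassemic, 68.7, 71.2 and 64.7 in apoTf-treated β-thalassemic and 73.9, 69.9 and 66.2 in apoTf-treated WT libraries. Rpa1, the large subunit of the single-strand binding protein, was at 88, 86.1 and 91.9 FPKM in WT, 91, 94.5 and 94.9 in β-thalassemic, 87, 93.8 and 90.6 in apoTf-treated β-thalassemic and 93.9, 92.2 and 88 in apoTf-treated WT libraries, and differed by at most 0.08 on the log2 scale in any pairwise comparison. Rfc1, Rfc2, Rfc3 and Rfc5 and Rpa2 had differences of -0.11 to 0.10 without replicate 1 of the WT group, and Rpa3 reached 0.21 ± 0.13 (SE) for apoTf in β-thalassemic Pro-E (adjusted p = 1). Reads of Pcna shared with its annotated pseudogenes would not have been counted.

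Lig1, the ligase that joins Okazaki fragments, was at 139, 78.6 and 79.2 FPKM in WT, 73.1, 70.2 and 97.5 in β-thalassemic, 67.3, 76.5 and 80.2 in apoTf-treated β-thalassemic and 76.2, 77.3 and 80.8 in apoTf-treated WT libraries. Fen1, the nuclease that trims their flaps, was at 137, 117 and 139 FPKM in WT, 111, 115 and 124 in β-thalassemic, 119, 128 and 118 in apoTf-treated β-thalassemic and 115, 122 and 114 in apoTf-treated WT libraries. Of the Fen1 exon bases 84.2% are shared with Tmem258 or Gm10143, and the counts did not use strand. Lig1 was highest in replicate 1 of the WT group and next highest in replicate 3 of the β-thalassemic group. Both are libraries whose members followed GC, and the GC of Lig1 is 53.6%. Members of like GC deviated less in replicate 1 of the WT group. Lig1 was at 0.84 on the log2 scale from the median of the others, against -0.08 for Chaf1b (53.6%), 0.39 for Uhrf1 (53.7%) and 0.21 for Fen1 (53.8%). The part of GC in the values of Lig1 was not tested.

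Behind the fork, Chaf1a, the large subunit of the histone chaperone that loads new histones, was at 57.4, 35.3 and 38.7 FPKM in WT, 35.3, 33.1 and 41.2 in β-thalassemic, 33.6, 35.6 and 34.6 in apoTf-treated β-thalassemic and 35.6, 34.3 and 34.3 in apoTf-treated WT libraries. Uhrf1, which brings the maintenance DNA methyltransferase to hemimethylated sites, was at 103, 78.6 and 82.5 FPKM in WT, 78.7, 71 and 86.7 in β-thalassemic, 76.6, 80 and 83.2 in apoTf-treated β-thalassemic and 74.9, 75.4 and 80 in apoTf-treated WT libraries. Chaf1b stayed at 42.1 to 50.4 FPKM in all 12 libraries. Without replicate 1 of the WT group, the log2 differences of Chaf1a, Chaf1b and Uhrf1 lay between -0.09 and 0.09 in the pairwise comparisons. Of the Chaf1a exon bases 52.5% are shared with Ubxn6.

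Under apoTf the genotypes were apart for more members than in the other comparisons. The 3 apoTf-treated β-thalassemic libraries lay above the 3 apoTf-treated WT libraries for 11 members, Mcm2, Mcm3, Mcm5, Pcna, Cdt1, Cdc45, Gins2, Pola2, Pold1, Rfc2 and Rpa2, and below them for Rrm1. Among all tested genes 8.88% lay above and 2.74% below. These 2 groups also differed in GC trend. Across the 44 members r with GC was -0.63, -0.58 and -0.42 in the apoTf-treated WT libraries. In the apoTf-treated β-thalassemic libraries it was 0.32, 0.005 and 0.42. The 11 members ranged in GC from 45.3% (Pcna) to 60.7% (Pold1). The 11 differences were small, from 0.06 for Rfc2 to 0.33 for Cdt1 on the log2 scale, and none passed the test (limma, smallest adjusted p among the members 0.475, for Rrm1, without replicate 1 of the WT group). Same-numbered libraries of these 2 groups deviated together, and a fit of the 6 libraries with the replicate number as a block was added after the values were seen. In it Rrm1 (-0.37 ± 0.05 (SE), limma adjusted p = 0.0265) and Cdt1 (0.33 ± 0.04 (SE), adjusted p = 0.0237) passed, as did 213 of 9650 genes (2.21%). With the GC trend removed in the same fit, Rrm1 (-0.34 ± 0.04 (SE), adjusted p = 0.0098) and Pcna (0.19 ± 0.03 (SE), adjusted p = 0.0449) passed and Cdt1 did not (0.19 ± 0.04 (SE), adjusted p = 0.0641), where 1.83% of 8693 genes did. The 11 differences named above then ran from 0.05 for Mcm2 to 0.19 for Pcna. Without the pair of replicate 3, 0 members passed with the block, and Rrm1 and Cdt1 were both at an adjusted p of 0.0661. For β-thalassemic against WT Pro-E under PBS, groups did not overlap for 2 members (Mcm4 and Rrm2, higher) of 44, against 6.92% of tested genes, and without replicate 1 of the WT group for 4 (also Rfc1 and Rrm1, lower), against 16.8%. For apoTf in WT Pro-E they did not overlap for 5 members that were higher (Gins3, Orc6, Rfc1, Rrm2 and Tyms), against 2.61% of tested genes, and for 3 that were lower (Mcm2, Cdt1 and Pold1), against 8.29%, and without that library for the same 8, against 2.79% and 10.4%.

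Genes around the 44 were read from 6 lists of related pathways. Of 34 other fork and origin genes tested, 0 passed for β-thalassemic against WT Pro-E with 12 libraries and 1, Pold3, without replicate 1 of the WT group. Of 32 other nucleotide supply genes, 12 chromatin assembly genes, 19 E2F and RB regulators, 12 replication stress and checkpoint genes and 18 mitosis genes, 0 passed in any of the 5 comparisons in either fit. In β-thalassemic against WT Pro-E without that library their median differences were -0.02, 0.02, -0.01, 0.07, -0.03 and 0.03 in that order, starting with the fork and origin genes, against -0.06 over all tested genes. With all 12 libraries they were 0.25, 0.13, 0.20, 0.32, 0.25 and 0.22.

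Over the 5 comparisons the 3 genes of smallest p in those lists, in either fit, were Pold3, E2f7 and Rnaseh2c, and the latter 2 did not pass. E2f7, a repressor of E2F targets, was at 1.66, 1.77 and 1.11 FPKM in WT, 2.68, 2.06 and 3.25 in β-thalassemic, 1.64, 1.76 and 2.2 in apoTf-treated β-thalassemic and 1.71, 1.98 and 2.23 in apoTf-treated WT libraries. It differed for β-thalassemic against WT Pro-E by 0.65 ± 0.19 (SE) with 12 libraries and 0.71 ± 0.20 (SE) with 11 (limma adjusted p = 0.437 and 0.237). Rnaseh2c, a subunit of the nuclease that removes ribonucleotides from DNA, was at 53.6, 31.1 and 52.9 FPKM in WT, 29.8, 28.9 and 34.6 in β-thalassemic, 38.5, 37.6 and 39.9 in apoTf-treated β-thalassemic and 28.3, 29.3 and 31.5 in apoTf-treated WT libraries. The apoTf effect of Rnaseh2c differed between the genotypes by 0.89 ± 0.27 (SE) with 12 libraries and 0.76 ± 0.23 (SE) with 11 (adjusted p = 0.764 and 0.787).

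The sorted cells were checked against marker genes. B cell and T and NK cell markers summed to at most 0.126 and 0.356 FPKM in any library, with Cd3e and Cd3g at 0 in all, and macrophage markers to 0.957 to 2.26 FPKM. Sums of the erythroid precursor markers were 2056 to 3371 (WT) against 1386 to 1813 FPKM (β-thalassemic) under PBS. Under apoTf they were 2305 to 4928 (WT) against 1358 to 1933 FPKM (β-thalassemic), so the genotypes did not overlap in this sum. The sum includes Hbb-bs, in the locus of the deletion, the 1 of these markers that passed, lower in β-thalassemic Pro-E. Hbb-bs alone was at 714 to 1784 (WT) against 131 to 172 FPKM (β-thalassemic) under PBS. Under apoTf it was at 1091 to 3229 against 95.8 to 201 FPKM. Sums without Hbb-bs were not compared. Late erythroblast sums were 547 to 600 (WT) against 542 to 586 FPKM (β-thalassemic) under PBS. Under apoTf they were 451 to 708 against 440 to 658 FPKM, and 0 of the 4 tested passed. Of the neutrophil and monocyte, megakaryocyte and early progenitor markers 0 passed in any of the 5 comparisons, with or without replicate 1 of the WT group, but their sums differed in range between the groups. Neutrophil and monocyte markers summed to 2.34 to 35.8 FPKM in WT, 0.896 to 6.23 in β-thalassemic, 1.68 to 11.3 in apoTf-treated β-thalassemic and 2.99 to 46.0 in apoTf-treated WT libraries, with 1 of 8 markers under 1 FPKM in all libraries. The 4 of them that were tested had a median difference of -1.34 for β-thalassemic against WT Pro-E, and -2.26 without replicate 1 of the WT group. Megakaryocyte markers summed to 9.39 to 15.6 FPKM in WT, 5.86 to 7.57 in β-thalassemic, 8.15 to 11.4 in apoTf-treated β-thalassemic and 6.09 to 10.1 in apoTf-treated WT libraries, so that WT and β-thalassemic did not overlap under PBS. Early progenitor markers summed to 43.8 to 111 FPKM in WT, 44.1 to 55.9 in β-thalassemic, 51.0 to 78.3 in apoTf-treated β-thalassemic and 57.5 to 86.8 in apoTf-treated WT libraries, and the 3 tested had median differences of -0.50 and, without that library, -0.69. In the WT libraries whose neutrophil and monocyte sums lay within the range of the 6 β-thalassemic ones, Rrm1 was at 224 FPKM (replicate 3 of the apoTf-treated WT group, markers at 2.99 FPKM) and 118 FPKM (replicate 1 of the WT group, markers at 2.34 FPKM). The part of these cells in the differences of the members was not tested.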

How the data were processed

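Pro-E were sorted by TER119, CD71 and CD44 from bone marrow and polyadenylated RNA was sequenced. With STAR the authors aligned to mm10, kept reads with a single alignment, and used HOMER to count reads in exons on both strands per gene. The deposited values are FPKM per library, rounded to 3 decimals; tool versions are not given in the sources used here, and the labels also list featureCounts and edgeR. The authors' fold changes and p-values of apoTf against PBS were not used. Single alignment removes reads shared with near copies, and counting on both strands merges overlapping genes. Depth is not in the files: from the step that 1 read makes in genes of 200 to 1500 bases with a single annotated transcript (48.9% to 60.8% of values within 0.05 read of a whole number), it was estimated at 33500000 reads in replicate 1 of the WT group and 40400000 to 51900000 in the other libraries. No pair of libraries of a group was alike: at most 0.104% of tested values were equal.

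Values were analysed as log2(FPKM + 0.5) with limma 3.58.1 (lmFit, eBayes with trend) in R 4.3.3, for genes at 1 FPKM or more in 3 or more libraries, with all 12 libraries in 1 fit and Benjamini-Hochberg adjustment over all genes. Fold changes on this scale understate those of low genes. This fit was repeated without replicate 1 of the WT group, as were the average over both treatments and the fits with the GC trend removed. The alternatives listed below were not repeated without it, apart from leaving out each library in turn. Labels do not say which replicates came from separate mice beyond the pooling, so p-values measure the spread between these libraries. Named genes were the members with an adjusted p under 0.05 in any comparison, the 3 members of smallest unadjusted p in each, and 22 listed members covering each role; of other lists, up to 3 genes of smallest p. The members and the lists were chosen with earlier results of these data known. Alternatives were pseudocounts of 0.1 and 1, no filter, a 5 FPKM minimum, quantile normalization, scaling by median ratios, only the groups compared, eBayes without its trend, the replicate number as a block, and each library left out. Same-numbered libraries of the apoTf groups had deviations from their group means correlated at r of 0.25 to 0.51 in all 3 pairs (-0.51 to 0.14 for other numbers), a pairing seen in the data and not given by the labels, and these 6 libraries were also fitted with the number as a block. That fit, the average over both treatments and the removal of each library's GC trend (a natural spline of the deviation from the gene's median on transcript GC, for the 8693 genes with a coding transcript in GENCODE vM21) were added after the values were seen. Of the scripts, only the limma fit was tested on simulated data, for β-thalassemic against WT Pro-E. The simulation held no GC trend and no outlying library. Promoter windows are from RefSeq (GRCm38.p6), positions and exon overlaps from GENCODE vM21 (GRCm38), and figures were drawn with matplotlib 3.10.9.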

Additional observations from a re-analysis of the deposited data

How the results depend on the processing

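Of the alternatives other than those added after the values were seen, all but 1 left the count of members past the threshold at 0 in the 5 comparisons. The exception was leaving out replicate 2 of the WT group, which gave 2 members (Cdt1 and Pold1) for apoTf in WT Pro-E. Over the libraries left out in turn, the count ran from 0 to 2 there and was 0 in the other 4 comparisons. The median difference of the 44 members for apoTf in WT Pro-E ran from -0.020, without replicate 1 of the WT group, to 0.23; for β-thalassemic against WT Pro-E it ran from -0.02 to 0.17. Rrm1 for β-thalassemic against WT Pro-E was on the other side of 0 under quantile normalization (0.013), without replicate 1 of the β-thalassemic group (0.014) and without replicates 2 or 3 of the WT group (0.13 and 0.17), and lay between -0.31 and 0.17 over the libraries left out; with 12 libraries it was near 0. Averaging over both treatments and removing the GC trend, chosen after the values were seen, gave 1 member, Rrm1. It was at -0.32 (limma adjusted p = 0.0424), or -0.30 (adjusted p = 0.0306) without replicate 1 of the WT group. Cdt1 was at 0.028 and 0.046 in these fits, which average differences of opposite sign. Without these steps and over the libraries left out, Cdt1 in β-thalassemic minus WT Pro-E was -0.58 to -0.24 under PBS and 0.28 to 0.38 under apoTf. The count of all genes called for β-thalassemic against WT Pro-E was 25, and ran from 3 to 90 over the libraries left out, 8 with a filter of 5 FPKM, 40 with quantile normalization, 9 with only the groups compared and 13 with the replicate block. For apoTf in β-thalassemic Pro-E it was 3, and 1 to 7 elsewhere. For apoTf in WT Pro-E it was 0 and reached 446 without replicate 2 of the WT group.

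In the comparisons other than that of the genotypes under apoTf the replicate numbers did not pair the libraries: of the same-numbered pairs, at most 1 of 3 had deviations correlated over 0.1. Over all groups 6 of 18 pairs did (r from -0.39 to 0.51), and 6 of 12 libraries correlated best with one of their own number. Within the apoTf groups the block gave 2 members (Cdt1 and Rrm1) and 213 genes in all, against 0 and 5 in those 6 libraries without it, and 0 to 2 members when each pair was left out; with the GC trend removed too it gave 2 (Pcna and Rrm1). With the replicate block in the fit of all 12 libraries 0 members passed in each of the 5 comparisons, and the median differences of the members were as without the block (0.09, 0.04, 0.13, 0.03 and -0.07). Each group held 3 libraries. With replicate 1 of the WT group in the fit, the pairwise 95% interval of a member had a median width of 0.38 to each side. It was 0.23 for β-thalassemic against WT Pro-E without that library. These widths are not limits of detection, since calls used p-values adjusted over all genes tested. With 12 libraries Rpa3 differed by 0.93 for apoTf in WT Pro-E, where the smallest limma adjusted p of the members was 0.41.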

Other observations

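Replicate 3 of the β-thalassemic group deviated with GC in the direction of replicate 1 of the WT group, at a smaller scale. Of the members, Rpa3 was at 27.5 FPKM there against 36.4 to 45.6 FPKM in the other 10 libraries, replicate 1 of the WT group aside, and Lig1 at 97.5 FPKM against 67.3 to 80.8 FPKM. Its Rn45s share of summed FPKM, 2.91%, was the next highest after that library. The ratio of Pola1 (41.5% GC) to Pola2 (54.7% GC) was 0.382 in replicate 1 of the WT group, 0.832 and 0.870 in replicate 3 of the β-thalassemic and of the WT group, and 1.02 to 1.30 in the other 9 libraries. The ratio of Chaf1a (55.2% GC) to Chaf1b (53.6% GC), which are closer in GC, was also apart in replicate 1 of the WT group, at 1.33 against 0.677 to 0.838 in the other 11 libraries. What lies behind the GC trend was not tested.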
